A study of Xenopus laevis with 3 samples.

Results

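The forms of translation elongation factor 1 alpha (EF1A) were followed through the germ cells and somatic cells of 3 juvenile ovaries of *Xenopus laevis*. The members were all features whose name starts with eef1a and a digit, which gave 6 of the 44454 named features. They are 3 forms with 2 homeologs each, named *eef1a1.L* (XBXL10_1g23701), *eef1a1.S* (XBXL10_1g25607), *eef1a1o.L* (XBXL10_1g7389), *eef1a1o.S* (XBXL10_1g10192), *eef1a2.L* (XBXL10_1g39418) and *eef1a2.S* (XBXL10_1g42642). The letters mark the long and the short set of chromosomes that *X. laevis*, an allotetraploid, carries. The choice was made by name, with earlier results of these data known. From these data the study had reported *eef1a1.L* as lower in germline stem cells than in a putative cystoblast cluster. Among early germ cells it had found *eef1a2.S* only in those clusters. The tests of these genes below use the same data.

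EF1A binds GTP and brings each charged tRNA to the ribosome, and it is among the most abundant proteins of a growing cell. *Xenopus* has a form for most somatic cells (*eef1a1*) and a form named for the oocyte (*eef1a1o*). Its early oocytes also hold *42sp50*, an EF1A relative and part of the 42S particle, which stores tRNA and 5S rRNA. *42sp50* is not a member here. In mammals, *EEF1A2* replaces *EEF1A1* in adult muscle and neurons.

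The ovaries came from untreated wild-type animals of Nieuwkoop-Faber stages 62 to 66, were taken individually and dissociated with collagenases and TrypLE. Each ovary gave 1 library of 3′ ends, which sets n at 3. The label calls the cells germline cells, but of the 17147 kept cells 8195 were germline by *ddx4* and *dazl* and 8952 were somatic. Clusters were named from marker genes, with "-like" added. None of the members is such a marker, and the 2 that were variable genes (*eef1a1o.L* and *eef1a1o.S*) were left out of the clustering. The germline stages were germline stem cell-like (GSC-like, 161 cells), pre-meiotic S-like (1018), G2/M-like (244), leptotene-zygotene-like (L-Z-like, 1386), pachytene-like (913), early diplotene-like (1189) and stage 1 follicle-like (538). A cluster's score on a list is the markers' mean log2 level above the other germline clusters. The cluster named pachytene-like scored 1.8 on its own list and 2.81 on the leptotene-zygotene list, and L-Z-like cells scored 2.78 on the pachytene list. Pre-meiotic S-like cells scored 0.539 on their list and 0.451 on the GSC list, and germline cluster 10 scored 0.749 on the pre-meiotic S list. Both names are weak. Each germline name went to 1 cluster at most, and germline clusters 2, 5, 6 and 10 stayed unnamed and are given by number. Their best scores were 1.02 for cluster 2 (leptotene-zygotene list), 1.55 for cluster 5 (early diplotene), and 2.33 and 1.9 for clusters 6 and 10 (stage 1 follicle). Other clusters scored higher on these lists, apart from cluster 6, which was passed over for its stromal score of 1.336.

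Ovaries 1, 2 and 3 gave 54386717, 50085751 and 33909102 UMIs (unique molecular identifiers, 1 per captured RNA molecule) in 5987, 6302 and 6964 cell barcodes. Filters kept 5614, 5353 and 6180 cells, with a median of 2630, 4939 and 1740 UMIs. Germline cells made up 18.6, 78.1 and 48.1% of the kept cells. A pair of libraries shared 6 to 16 barcodes. Levels are UMIs of a gene per 10000 UMIs of all genes, summed over a cluster's cells in an ovary. Each molecule is counted once at its 3′ end, so levels of the forms can be set side by side without a correction for length. Homeologs are near-identical copies, and reads that fit both could have been lost or assigned to the other, so the split between .L and .S is uncertain. Fewer cells with a transcript and less transcript per cell cannot be told apart in such sums. The 3 ovaries are the replicates, and p-values measure the spread between them.

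The form in use differed between soma, young germ cells and growing oocytes. *eef1a1* made up 91.5 ± 9.33% (SD, n = 3) of all eef1a UMIs in somatic cells, 97.1, 96.6 and 80.7% in ovaries 1, 2 and 3. In pre-meiotic S-like cells it held 78 ± 9.04%. *eef1a1o* made up 78.3 ± 6.64% in stage 1 follicle-like oocytes, with 80.5, 70.8 and 83.5% in the 3 ovaries. GSC-like cells were split almost evenly, at 47.6 ± 5.9% for *eef1a1* and 46.5 ± 6.4% for *eef1a1o*, and were the class with the largest share of *eef1a2*, 5.88 ± 0.928%. These shares include any background. *eef1a1o* held 39.5, 48.1 and 52% in GSC-like cells. In L-Z-like cells, where it is read as background below, it held 8.7, 5.4 and 46%, so ovary 3 separates the 2 classes least.

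**Figure D1:**
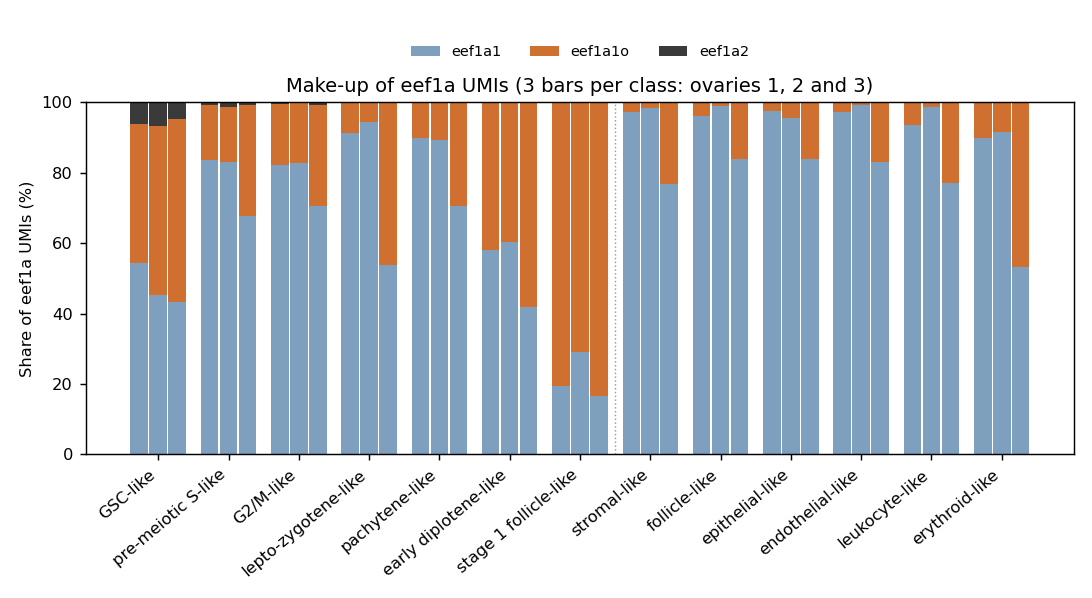
Share of each EF1A form in all eef1a UMIs (percent, y axis) for 13 cell classes (x axis), with the 3 ovaries shown separately. *eef1a1* leads in every somatic class and from pre-meiotic S-like to pachytene-like cells, *eef1a1o* reaches 70.8 to 83.5% in stage 1 follicle-like cells, and *eef1a2* reaches 4.83 to 6.6% in GSC-like cells.

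The summed eef1a level was lowest in L-Z-like cells and highest in stage 1 follicle-like oocytes. In L-Z-like cells it was 16.3, 9.16 and 16.3 per 10000. In GSC-like cells it was 18.3, 18.8 and 20.5, and in pre-meiotic S-like cells 37, 28.1 and 32. Early diplotene-like oocytes had 66.5, 38.4 and 70 per 10000, and stage 1 follicle-like oocytes 52.9, 97 and 96.3. Somatic cells as a whole lay between, at 52.2, 34.6 and 41.1. When the 13 classes are ordered by their mean, 11 of the 12 neighbouring pairs have overlapping ranges. The exception is the step from G2/M-like (26.5 to 34.3) down to GSC-like cells (18.3 to 20.5).

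**Figure D2:**
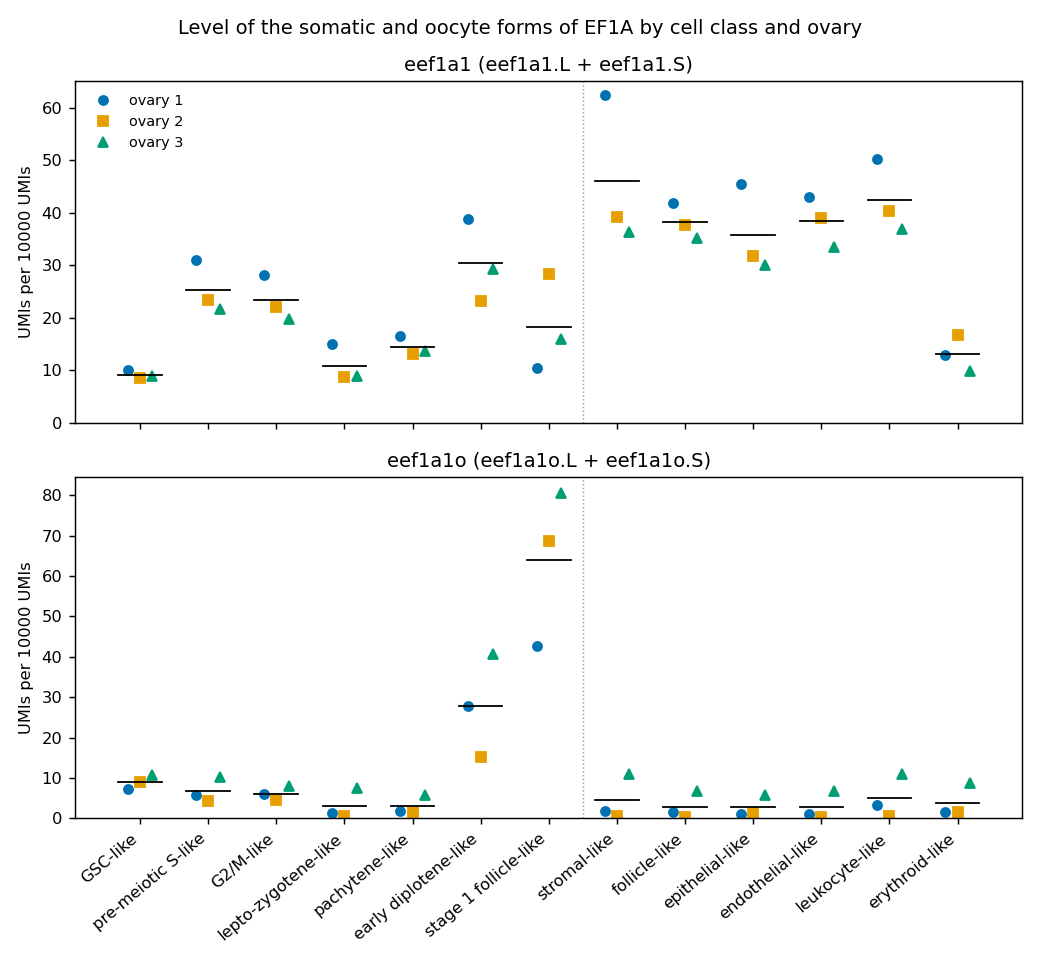
Level of *eef1a1* (top, *eef1a1.L* plus *eef1a1.S*) and *eef1a1o* (bottom, *eef1a1o.L* plus *eef1a1o.S*) in UMIs per 10000 UMIs (y axes) by cell class (x axis), with a point for each ovary and a line at the mean. *eef1a1* is high in the soma and low in GSC-like and L-Z-like cells, while *eef1a1o* climbs in early diplotene-like and stage 1 follicle-like cells.

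*eef1a1* was first compared between the germline and the soma. *eef1a1.L* was at 11.9, 10.1 and 9.59 per 10000 in all germline cells and at 30, 18.8 and 19.1 in all somatic cells. *eef1a1.S* was at 7.9, 10.9 and 10.3 in the germline and at 20.6, 14.6 and 14 in the soma. The germline was lower in each ovary for both genes. On the log2 scale *eef1a1.L* fell by 1.86 (SE 0.32, adjusted p = 0.00255) and *eef1a1.S* fell by 1.48 (SE 0.33, adjusted p = 0.00869). Of the 6 members, 5 had enough counts for this test and 3 were called, where 48.4% of all genes tested were called. These fitted differences are relative to the scaling of edgeR over all genes, so they can be larger than the ratio of the levels.

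Among the named germline stages, the mean *eef1a1* level was lowest in GSC-like and L-Z-like cells. *eef1a1.L* was at 6.79, 6.04 and 6.06 per 10000 in GSC-like cells, against 22.2, 15.9 and 14.3 in pre-meiotic S-like and 19.9, 14.8 and 13.2 in G2/M-like cells. *eef1a1.S* was at 3.15, 2.48 and 2.81, against 8.65, 7.41 and 7.32 and against 8.25, 7.2 and 6.62. The GSC-like values lie below every value of the other 2 classes. In the comparison with pre-meiotic S-like cells, 41% of all genes tested were called, and 4 of the 6 members, all of them tested, were. *eef1a1.L* and *eef1a1.S* were both lower in GSC-like cells by 1.73 on the log2 scale (SE 0.18 and 0.17, adjusted p = 1.55e-06 and 7.92e-07). Against G2/M-like cells, where 46.3% of genes were called, 4 of the 5 members tested were called, and *eef1a1.L* was lower by 1.5 and *eef1a1.S* by 1.55 (adjusted p = 1.57e-06 and 1.28e-06). Against all somatic cells 46.2% of genes and 4 of 6 members were called, with *eef1a1.L* and *eef1a1.S* at log2 differences of -3.2 and -3.89 (adjusted p = 6.47e-06 and 1.93e-06).

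*eef1a1* fell from pre-meiotic S-like to L-Z-like cells, at the entry into meiotic prophase. In L-Z-like cells *eef1a1.L* was at 8.4, 4.57 and 4.39 per 10000 and *eef1a1.S* at 6.47, 4.09 and 4.4, below the pre-meiotic S-like values of the same ovary in 3 of 3. The fall of 1.74 for *eef1a1.L* (SE 0.28, adjusted p = 0.000366) was larger than that of 0.79 for *eef1a1.S* (SE 0.21, adjusted p = 0.00836), a difference between the homeologs that was not tested. The call on *eef1a1.S* was lost without ovary 2 (adjusted p = 0.0941) and without ovary 3 (0.0601). Of the 5 members tested 3 were called in this comparison, against 43% of all genes. In pachytene-like cells the levels were 8.98, 7.03 and 7.02 for *eef1a1.L* and 7.55, 5.97 and 6.58 for *eef1a1.S*, and 0 of the 4 members tested were called against L-Z-like cells by edgeR (16.8% of all genes were), with 0 at an unadjusted p under 0.05 and 0 by DESeq2. With the ovary as a block, *eef1a1.L* rose by 0.46 (adjusted p = 0.0168) and *eef1a1.S* by 0.44 (adjusted p = 0.0154). Without ovary 1 they were called as well, at 0.67 and 0.59 (adjusted p = 0.0155 and 0.0255). *eef1a1.S* was also called with the members among the variable genes (0.63, adjusted p = 0.043) and without integration (0.71, adjusted p = 0.0411), as was *eef1a1o.S* without integration (1.73, adjusted p = 0.021). Clustering the germline at a finer resolution turned both negative, to -0.16 and -0.03.

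*eef1a1* rose from pachytene-like to early diplotene-like cells. There *eef1a1.L* was at 19.7, 10.6 and 13.6 per 10000 and *eef1a1.S* at 19, 12.6 and 15.7. The rise was 1.59 for *eef1a1.L* (SE 0.24, adjusted p = 0.000496) and 1.9 for *eef1a1.S* (SE 0.21, adjusted p = 8.67e-05), and 4 of the 4 members tested were called, against 44.5% of all genes. Stage 1 follicle-like cells differed between ovaries, at 5.26, 11.7 and 7.26 for *eef1a1.L* and 5.08, 16.7 and 8.63 for *eef1a1.S*. Ovary 2 was the highest for both. Neither was called against early diplotene-like cells (adjusted p = 0.435 and 0.719).

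The somatic classes were close to each other in *eef1a1*. Over stromal-like, follicle-like, epithelial-like, endothelial-like and leukocyte-like cells *eef1a1.L* ran from 25.2 to 37.7 per 10000 in ovary 1, from 17.9 to 23.3 in ovary 2 and from 17.2 to 22.8 in ovary 3. *eef1a1.S* ran from 16.7 to 24.7, from 13.9 to 17.8 and from 12.9 to 15.3. Neither was called in any of the 5 comparisons with stromal-like cells, in which 16.3% (follicle-like), 20.7% (epithelial-like), 21.1% (endothelial-like), 30.7% (leukocyte-like) and 24.5% (erythroid-like) of genes were called. With the ovary as a block *eef1a1.L* was lower in epithelial-like (log2 difference -0.36, adjusted p = 0.0341) and erythroid-like cells (-0.75, adjusted p = 0.035). In erythroid-like cells it was also called without ovary 2, at -2.16 (adjusted p = 0.0135), and with no filter on low counts *eef1a1.L* was called at -2.14 (adjusted p = 0.00117) and *eef1a1.S* at -1.5 (adjusted p = 0.0375). Erythroid-like cells, only 28, 10 and 62 of them, had the lowest levels, at 3.94, 11.3 and 5.74 for *eef1a1.L* and 8.9, 5.28 and 4.15 for *eef1a1.S*. The median gene of that fit was at -0.72, so the log2 differences of -0.86 for *eef1a1.L* and -0.14 for *eef1a1.S* lie near or above it. Ordered by the *eef1a1* level, 12 of 12 neighbouring pairs of the 13 classes had overlapping ranges.

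The homeologs of *eef1a1* were not used in one ratio. *eef1a1.L* made up 68.3 to 70.9% of *eef1a1* UMIs in GSC-like, 66.1 to 72% in pre-meiotic S-like and 66.6 to 70.7% in G2/M-like cells. The share then dropped to 49.9 to 56.5% in L-Z-like and 51.6 to 54.3% in pachytene-like cells, and was 45.6 to 51% in early diplotene-like and 41.2 to 50.9% in stage 1 follicle-like cells. The ranges of the first 3 stages do not overlap those of the last 4. The 5 large somatic classes had 55.9 to 61.8%, below the first 3 stages and overlapping L-Z-like cells at the lower end. Somatic cluster 14, which matched no list well enough, had 45.3, 48.6 and 48%. No test of the share was run. An exact permutation test of 3 ovaries against 3 cannot go below p = 0.1.

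**Figure D3:**
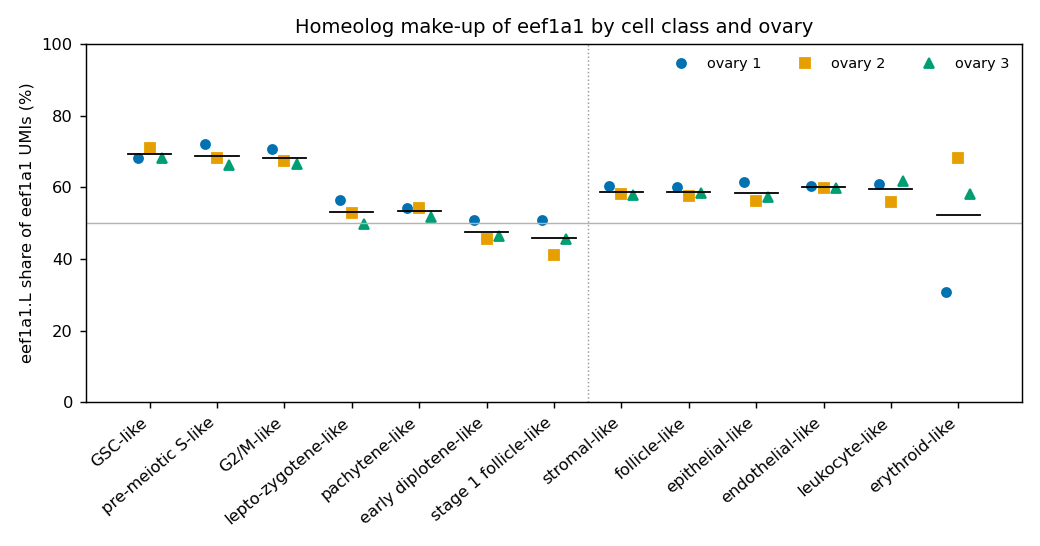
Share of *eef1a1.L* in *eef1a1* UMIs (percent, y axis) by cell class (x axis), with a point for each ovary, a line at the mean and a grey line at equal use. GSC-like, pre-meiotic S-like and G2/M-like cells lie at 66.1 to 72%, the later germ cells at 41.2 to 56.5%, and erythroid-like cells spread from 30.7 to 68.2%.

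*eef1a1o*, the oocyte form, has to be read against the level found in somatic cells. There *eef1a1o.S* was at 1.1, 1.03 and 5.52 per 10000 and *eef1a1o.L* at 0.371, 0.0932 and 2.39, with ovary 3 the highest for both. The early oocyte gene *42sp43.L*, a protein of the 42S particle, was at 0.577, 2.14 and 4.03 in the same cells, and *42sp50.L* at 0.688, 1.66 and 5.25. Whether *eef1a1o* in the soma comes from those cells or from free RNA was not tested. In L-Z-like cells *eef1a1o.S* was at 1.07, 0.457 and 5.29 and *eef1a1o.L* at 0.345, 0.0381 and 2.2, at or below the somatic level in every ovary, and is read as background. Pachytene-like cells, at 1.6, 1.47 and 4.39 for *eef1a1o.S*, were 1.45, 1.43 and 0.795 times the somatic level. Counted per cell, they held 0.879, 0.8 and 1.47 UMIs of *eef1a1o.S*, against 0.4, 0.451 and 1.24 in somatic cells.

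**Figure D4:**
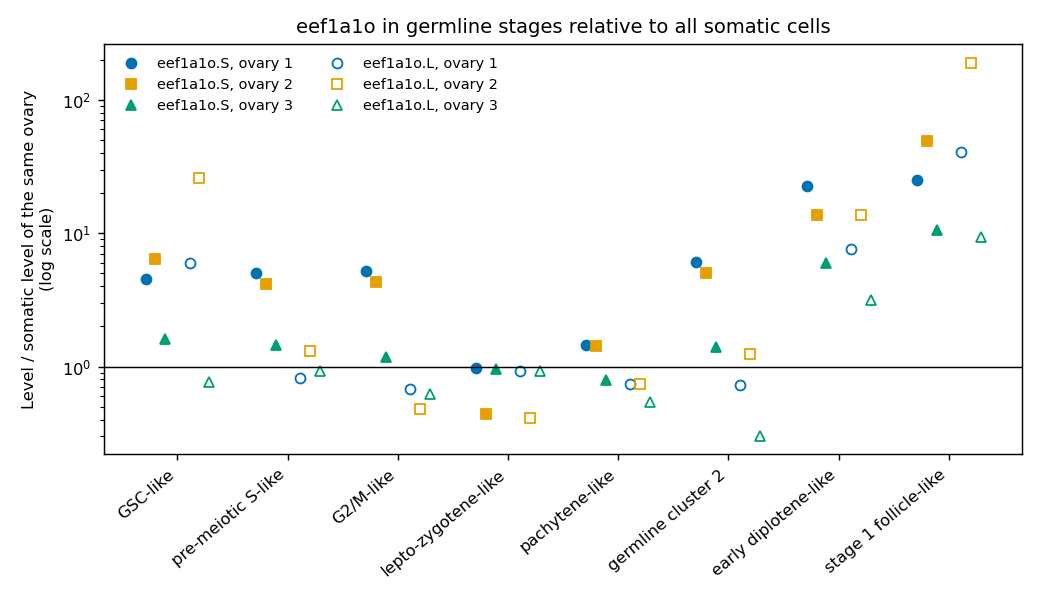
Level of *eef1a1o.L* and *eef1a1o.S* in each germline class divided by the level in all somatic cells of the same ovary (y axis, log scale, no unit), by class (x axis), with a point for each ovary and a line at 1. L-Z-like cells lie at or below 1 in all 3 ovaries, and stage 1 follicle-like cells lie at 9.29 to 190.

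Before meiosis the level of all somatic cells was passed by *eef1a1o.S*, and in GSC-like cells of ovaries 1 and 2 by *eef1a1o.L* as well. In ovary 3 the 5 large somatic classes ran from 4.08 to 7.65 for *eef1a1o.S*, a range that holds the G2/M-like value. Within the stromal-like class of ovary 3, somatic cluster 9 had both *eef1a1o* homeologs together at 15.1 per 10000. GSC-like and pre-meiotic S-like cells of that ovary had 10.7 and 10.2, so in this sum neither lies above every somatic cluster. Pre-meiotic S-like and G2/M-like cells were not tested against the soma. *eef1a1o.S* was at 5.02, 6.61 and 8.87 per 10000 in GSC-like cells, 4.56, 6.42 and 1.61 times the somatic level. It was at 5.51, 4.3 and 7.93 in pre-meiotic S-like cells (5.01, 4.17 and 1.44 times) and at 5.71, 4.44 and 6.54 in G2/M-like cells (5.19, 4.31 and 1.18 times). The ranges of these 3 stages overlap, with log2 differences of GSC-like cells of -0.06 (SE 0.22) and 0.13 (SE 0.2), neither called. *eef1a1o.L* was at 2.22, 2.43 and 1.82 in GSC-like cells, 5.98, 26.1 and 0.762 times the somatic level, so in ovary 3 its level per 10000 lay below that of the soma. Counted per cell, GSC-like cells of ovary 3 held 0.917 UMIs of *eef1a1o.L*, against 0.536 in somatic cells. Whether this exceeds background was not tested. In pre-meiotic S-like cells *eef1a1o.L* was at 0.307, 0.121 and 2.22 and in G2/M-like cells at 0.252, 0.0446 and 1.5, near or below the somatic level in each ovary. Against G2/M-like cells it rose by 2.07 in GSC-like cells (SE 0.5, adjusted p = 0.00202), a call that was lost without ovary 2 (log2 difference 1.31, adjusted p = 0.0753) and with DESeq2 (adjusted p = 0.248). Against pre-meiotic S-like cells the log2 difference was 1.22 (SE 0.6, adjusted p = 0.115). It was 1.8 with the ovary as a block (adjusted p = 0.000511) and 3.02 without ovary 3 (adjusted p = 4.24e-05). Against all somatic cells neither homeolog was called in GSC-like cells (log2 differences -0.09 and 0.13), while without ovary 3 both were, at 1.81 for *eef1a1o.L* (adjusted p = 0.037) and 1.02 for *eef1a1o.S* (adjusted p = 0.0334).

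Relative to *42sp43.L*, *eef1a1o.S* was higher in young germ cells than in stage 1 follicle-like and somatic cells. In GSC-like cells there were 30.3, 13.6 and 8.47 UMIs of *eef1a1o.S* for each UMI of *42sp43.L*. In pre-meiotic S-like cells there were 19.5, 13.2 and 3.67, and in G2/M-like cells 22.7, 7.65 and 3.33. Stage 1 follicle-like cells had 2.18, 1.01 and 1.48, and somatic cells 1.9, 0.479 and 1.37. The young germ cells were above both in every ovary, as were pachytene-like cells, at 4.83, 3.05 and 2.53. So was germline cluster 10, at 3.42, 1.15 and 2.22. The somatic values pool all somatic classes. Leukocyte-like cells of ovary 1 reached 4.84, above pachytene-like cells. The 9 smooth muscle-like cells of ovary 3 reached 5.67, above the pre-meiotic S-like, G2/M-like and pachytene-like values of that ovary. L-Z-like cells, whose *eef1a1o* is read as background, had 3.11, 0.847 and 1.78, also above the somatic ratio in every ovary. No ratio to another 42S gene was taken.

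*eef1a1o.S* was lower after the entry into meiotic prophase, a difference that was not called. L-Z-like cells were below pre-meiotic S-like cells in 3 of 3 ovaries, with a log2 difference of -1.54 (SE 0.6, adjusted p = 0.0538). With the ovary as a block it fell by 2.06 (adjusted p = 5.26e-05), and without ovary 3 by 2.94 (adjusted p = 0.000805). Of the 12 alternatives, 6 called the difference and 6 did not, with log2 differences from -2.94 to -1.2. *eef1a1o.S* then rose with the growth of the oocyte. Early diplotene-like cells held 24.9, 14 and 33.2 per 10000 of *eef1a1o.S*, 22.6, 13.6 and 6.01 times the somatic level, and 2.83, 1.28 and 7.49 of *eef1a1o.L*. Against pachytene-like cells *eef1a1o.S* rose by 3.92 (SE 0.47, adjusted p = 0.000139) and *eef1a1o.L* by 3.54 (SE 0.92, adjusted p = 0.0101). The call on *eef1a1o.L* was lost without ovary 1 (adjusted p = 0.0666), and pachytene-like *eef1a1o.L* lay below the somatic level.

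In stage 1 follicle-like cells *eef1a1o.S* reached 27.4, 51 and 58.3 per 10000 and *eef1a1o.L* 15.1, 17.7 and 22.2. Of the 4 members tested against early diplotene-like cells, 1 was called, against 13.1% of all genes. This was *eef1a1o.L*, which rose by 2.5 (SE 0.63, adjusted p = 0.035), although leaving out ovary 1, 2 or 3 ended the call (adjusted p = 0.107, 0.0697 and 0.0659), as did clustering at resolution 1 (2.41, adjusted p = 0.0523). *eef1a1o.S* was higher in 3 of 3 ovaries with a log2 difference of 1.23 (SE 0.5, adjusted p = 0.132), and was called by DESeq2 (1.22, adjusted p = 0.043). The ratio of *eef1a1o.S* to *eef1a1o.L* changed from 8.82, 10.9 and 4.43 in early diplotene-like cells to 1.81, 2.88 and 2.63 in stage 1 follicle-like cells, and the ranges do not overlap. In germline cluster 2 the ratio was 24.6, 44.3 and 10.8.

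The germline as a whole was higher than the soma in *eef1a1o.S*, at 16.1, 11.6 and 38.6 per 10000. The rise of 2.48 (SE 0.8, adjusted p = 0.0346) was not called without ovary 1 (adjusted p = 0.121) or without ovary 2 (0.0649). *eef1a1o.L* was at 6.73, 1.65 and 13, with a log2 difference of 2.26 (SE 1.15, adjusted p = 0.138), and 2.84 with the ovary as a block (adjusted p = 0.000916). Each ovary's germline held these stages in different proportions, with 32, 885 and 272 early diplotene-like cells.

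The share of *eef1a1o* was also followed cell by cell. A larger share can come from more *eef1a1o* or from less *eef1a1*, which this measure cannot tell apart. Of the cells with at least 5 eef1a UMIs, those with more *eef1a1o* than *eef1a1* made up 43.2, 50 and 59.4% in GSC-like, 0, 1.65 and 12.2% in pre-meiotic S-like, 28.1, 16 and 54.8% in early diplotene-like and 97.8, 90.1 and 100% in stage 1 follicle-like cells. Stromal-like cells, taken as the background, had 0, 0 and 4.79%, but they are rich in *eef1a1*. L-Z-like cells, which are low in *eef1a1*, had 0, 1.67 and 26.7%. Erythroid-like cells, also low, had 0, 0 and 45.5% of only 9, 3 and 11 cells. In ovary 3 the GSC-like share of 59.4% lies less far above these. GSC-like cells often carried both forms. After each cell was thinned to 2000 UMIs, 63, 62.3 and 60% of them held *eef1a1* and *eef1a1o* together. With or without *eef1a1*, *eef1a1o* was in 76.1, 85.5 and 82.9% of thinned GSC-like cells, against 27, 8.51 and 79.6% of stromal-like cells, so that in ovary 3 the shares lie close together. Without thinning they were 88.2, 97.3 and 97.2% against 33, 8.24 and 75.9%, at median depths of 8931, 4854.5 and 4978 UMIs against 2499, 1751 and 1516.5.

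The 4 unnamed germline clusters differed in their use of the forms. Cells of cluster 5 had a median of 998, 1225.5 and 965 UMIs, and those of cluster 6 had 2338, 870 and 863.5. Early diplotene-like cells had 12542.5, 20024 and 17264.5. The part of background RNA in the levels of clusters 5 and 6 was not tested. Germline cluster 2 had *eef1a1o.S* at 6.67, 5.15 and 7.78 per 10000 with *eef1a1o.L* at 0.271, 0.116 and 0.724, and *eef1a1* at 75.2, 78.3 and 68.6% of eef1a UMIs. Cluster 5 had *eef1a1o.S* at 18.6, 11.3 and 27.9. Cluster 6 had *eef1a1o.S* at 19.8, 48.5 and 38.1 and *eef1a1o.L* at 8.43, 12.8 and 15.9, and cluster 10 had 30.6, 14.1 and 29 with 7.9, 4.89 and 11.7. *eef1a1o* made up 54.7, 74.8 and 78.5% of eef1a UMIs in cluster 6, which held only 11 cells in ovary 2, and 81.5, 62.5 and 84.6% in cluster 10. The summed level of 14 stromal markers in cluster 6 was 9.24, 0 and 3.33 per 10000, and its part in these values was not tested.

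Each of these clusters was compared with L-Z-like cells. In cluster 2, 42.7% of all genes and 2 of the 4 members tested were called, *eef1a1.L* at 0.93 (adjusted p = 0.014) and *eef1a1.S* at 1.05 (adjusted p = 0.00247). Without ovary 2 or 3 *eef1a1.L* was not called (adjusted p = 0.124 and 0.0999), nor was *eef1a1.S* without ovary 2 (0.0556). *eef1a1o.S* in cluster 2 was at 1.68 (adjusted p = 0.0506) and, with the ovary as a block, rose by 2.24 (adjusted p = 0.000271), and without ovary 3 by 3.12 (adjusted p = 0.0022). In cluster 5, 40.9% of genes and 3 of 4 members were called, with *eef1a1o.S* at 3.44 (adjusted p = 0.00388), *eef1a1.S* at 2.11 and *eef1a1.L* at 1.99 (adjusted p = 0.000531 and 0.00228). *eef1a1o.L* in cluster 5 was at 2.32 (adjusted p = 0.0898) and at 2.8 with the block (adjusted p = 9.4e-05), at 2.21 without ovary 2 (0.0398) and at 3.61 without ovary 3 (0.0015). In clusters 6 and 10, 50.6 and 49.8% of genes were called. Of the genes called in cluster 6, 48.3% were higher, and 29.4% of those called by DESeq2. In both, 2 of 4 members were, with *eef1a1o.L* at 3.98 and 3.27 and *eef1a1o.S* at 3.96 and 3.43 (adjusted p = 0.0031, 0.0109, 0.00232 and 0.00279). Those in cluster 10 were lost without ovary 1 (adjusted p = 0.123 for *eef1a1o.L* and 0.07 for *eef1a1o.S*).

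*eef1a2* was rare, and most of the germline's *eef1a2.L* was in GSC-like cells. Of the 41 UMIs of *eef1a2.L* in germline cells, 38 were in the 161 GSC-like cells, 18, 16 and 4 in ovaries 1, 2 and 3, or 0.426, 0.431 and 0.22 per 10000. The 1018 pre-meiotic S-like cells held 1, 1 and 0 UMIs, G2/M-like cells 0, and the 8952 somatic cells 4, 0 and 1. Relative to pre-meiotic S-like cells the level pooled over the ovaries was 63.6 times higher, with an exact 95% counting interval of 16.4 to 545. The fitted log2 difference of 5.36 was called (SE 0.58, adjusted p = 1.98e-06, higher in 3 of 3 ovaries). Relative to somatic cells the pooled level was 226 times higher (interval 89 to 737), with a fitted log2 difference of 6.27 (SE 0.63, adjusted p = 1.41e-05). In both comparisons *eef1a2.L* passed the filter on low counts only through the GSC-like sums, where it is high. The calls therefore add no support to these counts. Of the 12 alternatives, 9 tested it against pre-meiotic S-like cells and 11 against somatic cells, and each of these called it. Against the G2/M-like cells without a UMI the pooled level was at least 15.1-fold higher, with 3 UMIs over the group as the floor, and no test was made. Intervals and floors cover counting error only.

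**Figure D5:**
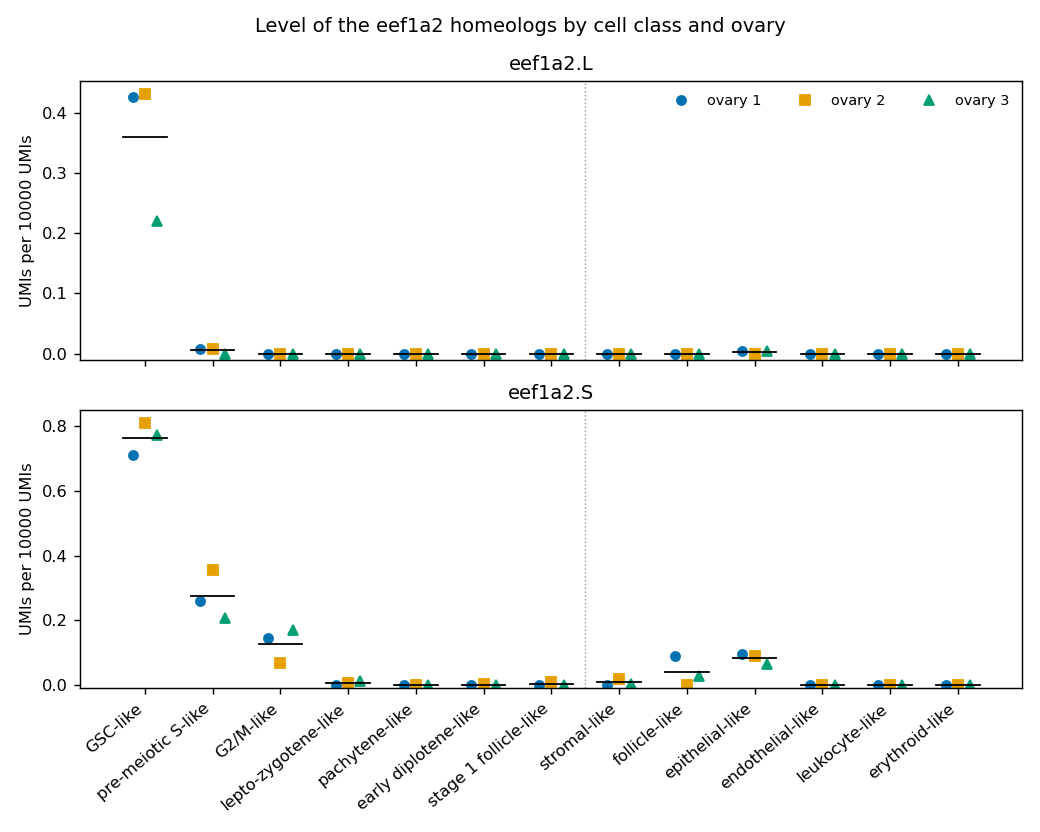
Level of *eef1a2.L* (top) and *eef1a2.S* (bottom) in UMIs per 10000 UMIs (y axes, which differ in scale) by cell class (x axis), with a point for each ovary and a line at the mean. *eef1a2.L* is at 0.22 to 0.431 in GSC-like cells and near 0 elsewhere, and *eef1a2.S* in this clustering steps down from GSC-like through pre-meiotic S-like to G2/M-like cells, with a low level in epithelial-like cells.

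*eef1a2.S* was found in more classes. It had 30, 30 and 14 UMIs in GSC-like cells (0.71, 0.809 and 0.771 per 10000), 33, 47 and 14 in pre-meiotic S-like cells (0.26, 0.356 and 0.207) and 7, 3 and 4 in G2/M-like cells (0.147, 0.0669 and 0.171). L-Z-like cells had 0, 1 and 1 UMIs. The pooled level in pre-meiotic S-like cells was 41.3 times that in L-Z-like cells (interval 11.1 to 346). The fall was called, with a fitted log2 difference of -5.25 (SE 0.57, adjusted p = 2.74e-05). In that comparison *eef1a2.S* passed the filter on low counts only through the pre-meiotic S-like sums, so the call adds no support. The mean level in pre-meiotic S-like cells rests on the clustering, since it was 0.0474 at resolution 1 and 0.0739 without integration, where G2/M-like cells had 0.332. The fall to L-Z-like cells was not tested under these 2 clusterings. *eef1a2.S* rose in GSC-like cells by 1.17 against pre-meiotic S-like cells (SE 0.28, adjusted p = 0.00308, not called without ovary 3 at adjusted p = 0.0526), by 2.45 against G2/M-like cells (SE 0.39, adjusted p = 3.69e-05) and by 2.59 against all somatic cells (SE 0.37, adjusted p = 0.000161). Against G2/M-like cells it passed the filter only through the GSC-like sums. Pachytene-like cells had no UMI of either homeolog. Over the whole germline *eef1a2.S* was not called against the soma (log2 difference -0.97, adjusted p = 0.231), but was lower without ovary 1 (-1.85, adjusted p = 0.0474).

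In the soma *eef1a2.S* was found mainly in epithelial-like cells, with 66, 34 and 18 UMIs (0.0959, 0.0895 and 0.0642 per 10000). Stromal-like cells held 0, 1 and 1, so the pooled epithelial-like level was 34.3 times higher (interval 9.27 to 286). The fitted log2 difference was 4.69 (SE 0.81, adjusted p = 0.00328), and *eef1a2.S* was 1 of the 5 members tested and the one called there. It passed the filter on low counts only through the epithelial-like sums. The GSC-like level was still 8.67 times that of epithelial-like cells (interval 6.39 to 11.7). Follicle-like cells held 14, 0 and 3 UMIs (0.0901, 0 and 0.0277 per 10000), so in ovary 1 their level was close to that of epithelial-like cells. Endothelial-like, leukocyte-like and erythroid-like cells held 0, which at their depth allows up to 0.036 to 1.13 per 10000.

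Of the GSC-like cells, 77 of 161 (47.8%) had an *eef1a2* UMI, 56.9, 43.2 and 44.4% by ovary. Thinned to 2000 UMIs per cell it was 23.9, 18.8 and 14.3%, against 0, 0 and 0.365% of stromal-like cells. Of the 11, 13 and 5 thinned cells with *eef1a2*, 10, 13 and 3 also held *eef1a1o* and 10, 9 and 4 *eef1a1*, forms that most thinned GSC-like cells held. Summed levels of markers of several other cell types were higher in all GSC-like cells than in pre-meiotic S-like cells, with no test made. That of 10 neuron markers was 2.27, 2.08 and 1.93 per 10000 in GSC-like and 0.291, 0.462 and 0.444 in pre-meiotic S-like cells, with 1, 1 and 3 of them at 0 in GSC-like cells. GSC-like cells were named by a list that holds *chgb.L*, *nefm.S* and *scg2.S*, genes that neurons also express, and none of these 10. That of 12 skeletal and heart muscle markers was 3.24, 3.88 and 3.52 against 0.543, 0.599 and 0.695, with 4, 6 and 7 at 0, and that of 16 epithelial markers 6.27, 7.23 and 5.23 against 1.31, 1.61 and 1.73, while epithelial-like cells had 95.9, 122 and 112. Of 12 smooth muscle markers the sum was 0.473, 0.674 and 0.606 against 0.0865, 0.19 and 0.0888, with 4, 4 and 7 at 0. The part of these cells in the *eef1a2* level was not tested.

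*42sp50.L* was high in the oocyte classes. It is a marker used to name early diplotene-like cells, so its level there is a description. In all germline cells it was at 11, 27.2 and 51.3 per 10000. GSC-like cells had 0.355, 0.351 and 1.82, and L-Z-like cells 0.689, 0.469 and 3.8. Early diplotene-like cells had 47.9, 41.3 and 78.6 per 10000 of *42sp50.L*, and stage 1 follicle-like cells 16.7, 91.9 and 59.9, higher in 1 of 3 ovaries, whereas both homeologs of *eef1a1o* were higher there in 3 of 3.

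Other genes of translation were counted beside the members. Of 29 other features of elongation, 24 were tested in GSC-like against pre-meiotic S-like cells, where 14 were lower and 2 higher, against 19.9% of all genes lower and 21% higher (median log2 difference -0.63, and 0.02 over all genes). The largest falls were in *abce1.L*, which splits ribosomes after termination (-2.63, adjusted p = 3.95e-05), *eif5a.L*, which helps at stalling sites (-1.52, adjusted p = 0.000158), and *pelo.L*, a ribosome rescue factor (-1.39, adjusted p = 0.00398). Of 145 ribosomal protein features tested, 114 were lower and 2 higher (median -0.7). They made up 14.5, 12.4 and 14.5% of all UMIs in GSC-like cells and 20.6, 19.1 and 18.9% in pre-meiotic S-like cells. In early diplotene-like against pachytene-like cells 10 of 29 elongation features were higher and 3 lower (median 0.35), against 23.3 and 21.2% of all genes, with *eef1b2.L* at 2.2 and *eef1g.L* at 2.1, subunits of the exchange factor that reloads EF1A with GTP, and *eef2k.L*, the kinase that inhibits EF2, at -2.47. There 140 of 145 ribosomal protein features were higher (median 1.43).

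In stage 1 follicle-like against early diplotene-like cells 1 of 145 features counted by name as ribosomal protein was called. This was *rps19bp1.L* (1.09, adjusted p = 0.0171), whose name is that of a protein binding a ribosomal protein. In the germline against the soma 137 of 145 ribosomal protein features were lower (median -1.74), and they made up 17.6, 17.7 and 19.6% of germline and 41.2, 33 and 34.7% of somatic UMIs, while of 29 elongation features 7 were lower and 5 higher. Of all genes 27.6% were lower and 20.9% higher.

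The genes most alike to each form were found over 57 cluster sums from 20 groups and 3 ovaries, as a description. The sums share libraries and depth. By Pearson correlation of log2 levels over 3275 genes, *eef1a1.L* was closest to *rps6.S* (0.91), *rpl17.L* (0.903), *rps6.L* (0.902), *rpl4.L* (0.896) and *rpl18.S* (0.887), and those closest to *eef1a1.S* included *rpl3.L* (0.905), *rpl4.L* (0.868), LOC108717369 (0.846) and *rps15a.S* (0.841). All of the genes named here but LOC108717369 are ribosomal protein genes by name. *eef1a1o.L* was closest to *ccna1.L* (0.961), *ccna1.S* (0.949), *sox3.S* (0.944), *ccnb1.S* (0.933) and *h1-8.S* (0.932), cyclins, a transcription factor and the linker histone of the oocyte and embryo. *eef1a1o.S* was closest to *mkrn3.S* (0.918), *dctpp1.L* (0.901), *zar1l.S* (0.893), *rpain.L* (0.881) and *zar1.L.1* (0.878). The homeologs correlated at 0.815 for *eef1a1*, 0.862 for *eef1a1o* and 0.774 for *eef1a2*, whereas *eef1a1.L* and *eef1a1o.S* were at -0.386.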

How the data were processed

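The authors prepared 3′ GEM-X libraries from 3 ovaries and counted UMIs per gene and cell with Cell Ranger 8.0.1. These counts were used as the authors deposited them, with neither normalization nor cell filters. The genome build is not given in the sources used here, and no genome was used. Features with a name were kept (44454). The members and gene lists were chosen with earlier results of these data known.

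As in the study's methods, a cell was kept if it had 100 to 8000 genes and if its share of UMIs from 13 mitochondrial genes was at most 1.5%. Seurat 5.3.0 (R 4.3.3) integrated the ovaries by canonical correlation analysis on 2000 variable genes without the members. Clustering used 20 dimensions and resolution 1 for the kept cells, and 30 dimensions and resolution 0.5 for those in clusters with at least 5 UMIs of *ddx4* and *dazl* per 10000 (the germline). Clusters were named by fixed marker lists. Scrublet called 49, 7 and 35 cells as doublets, 0.131 to 0.873%, so it may not have worked, and no cell was removed by it. An alternative left out the 5% with the highest scores.

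Counts were summed per cluster and ovary (at least 10 cells), 3 sums against 3, and tested with edgeR 4.0.16 (quasi-likelihood test, TMM, filterByExpr), two-sided, with Benjamini-Hochberg adjustment over all genes and a threshold of 0.05. Every adjusted p is from edgeR unless DESeq2 1.42.0 is named. Sums of the same ovary come from the same animal, which pairs them. Their deviations correlated at 0.0611 to 0.543, and the ovary as a block was an alternative. Named genes were all members, *42sp50.L*, up to 3 called genes per list with the largest change, and the 5 genes most alike to each form with a mean of at least 0.5 per 10000 (log2 with a pseudocount of 0.1). Some genes that this rule names are not reported here. On simulated sums, the test found 28% of genes changed by 1 log2 unit and 93.9% of those changed by 2 in GSC-like against pre-meiotic S-like cells (9494 genes), and 35 and 100% in early diplotene-like against pachytene-like cells (13800 genes). The simulation gave every gene the same spread (dispersion 0.05), with no difference between ovaries. It changed only genes with over 5 expected counts in the smallest sum. These rates need not hold for members with a larger spread or fewer counts, such as *eef1a1o.L* and *eef1a2.L*. The other alternatives were no filter on low counts, thinned sums, leaving out each ovary, at least 500 genes per cell, resolution 1, no integration and the members among the variable genes.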

Additional observations from a re-analysis of the deposited data

Results flagged for a closer look

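The 337 cells with more than 8000 genes, which the filter leaves out of every comparison, carried *eef1a1o* above the level of the somatic cells of their ovary. In ovaries 1, 2 and 3 there were 225, 54 and 58 such cells, with *eef1a1o* at 59.5, 53.3 and 83 UMIs per 10000, against 1.47, 1.12 and 7.91 in the somatic cells. *eef1a1o* made up 79.6, 67.4 and 86.3% of their eef1a UMIs, and *eef1a1.L* made up 47.7, 41.1 and 45.1% of *eef1a1*, values in the range of the stage 1 follicle-like cells or close to it. Their part in the levels of the stages above was not tested, since these cells were not clustered.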

How the results depend on the processing

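Of the 1210 tests of single genes under an alternative, 1099 kept their direction and their call, 48 lost the call, 38 gained it and 25 changed sign. *eef1a1o* in stage 1 follicle-like cells was 70.7% without integration, where that cluster overlapped the one used here only in part (Jaccard index 0.406). The share of *eef1a2* moved to 0.135% (resolution 1) and 0.285% (no integration) in pre-meiotic S-like cells and to 1.06% (no integration) in G2/M-like cells, to 0.0112% in early diplotene-like (members among the variable genes) and to 0.0498 and 0.0267% in pachytene-like cells (members among the variable genes and no integration). No called difference changed sign. *eef1a1o.S* in GSC-like cells moved to 0.02 (thinned), 0.17 (resolution 1) and 0.19 (no integration) against pre-meiotic S-like, to -0.08 (no filter) and -0.12 (no integration) against G2/M-like, and to -0.14 (no filter) against somatic cells, and *eef1a1o.L* against somatic cells to 0.96 (ovary as a replicate block) and 0.62 (thinned). At resolution 1 pachytene-like against L-Z-like cells were at 0.49 for *eef1a1o.L*, -0.16 for *eef1a1.L* and -0.03 for *eef1a1.S*. With thinned sums *eef1a1.S* was at 0.34 in cluster 10 and 0.49 in erythroid-like cells. The causes were not tested.

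Genes called moved by over 1.5 times, from 8587 to 4085 in GSC-like against somatic cells (thinned), from 5606 to 3214 (resolution 1) and 2349 (no integration) in L-Z-like against pre-meiotic S-like cells, and from 1978 to 1244 (DESeq2), 4305 (replicate block), 423 (resolution 1) and 3094 (members among the variable genes) in pachytene-like against L-Z-like cells. Stage 1 follicle-like against early diplotene-like cells moved from 1979 to 3898 (no filter), 3762 (block) and 1264 (resolution 1). Cluster 10 moved to 1294 (thinned), and cluster 6 to 3469 (DESeq2), 8880 (no filter) and 3415 (thinned). Against stromal-like cells, follicle-like moved to 2933 (no filter) and 3163 (block), epithelial-like to 5300 (block), endothelial-like to 2478 (no filter) and 714 (thinned), leukocyte-like to 4335 (no filter) and erythroid-like to 2100 (no filter) and 185 (thinned). Among the genes named here, the block ended no call, and other than those given with the results gained none.

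Leaving out each ovary gave 5157 to 9549 genes for germline against soma, 2491 to 4346 for GSC-like against pre-meiotic S-like, 2520 to 3942 against G2/M-like and 5698 to 6667 against somatic cells. It gave 3291 to 5111 for L-Z-like against pre-meiotic S-like, 43 to 1933 for pachytene-like against L-Z-like and 2985 to 7590 for early diplotene-like against pachytene-like cells. For stage 1 follicle-like against early diplotene-like cells it gave 0 to 1104, the 0 being without ovary 1, where edgeR had 5516 genes at an unadjusted p under 0.05. It gave 2728 to 4077 for cluster 10, 2481 to 6069 for cluster 2, 1890 to 5261 for cluster 5, 2691 to 5996 for cluster 6, and against stromal-like cells 917 to 1735 for follicle-like, 1986 to 2316 for epithelial-like, 750 to 1259 for endothelial-like, 1542 to 2620 for leukocyte-like and 292 to 702 for erythroid-like cells. Among members not called, it spanned 0 for *eef1a1o.S* in GSC-like cells (-0.25 to 0.08, -0.07 to 0.42 and -0.26 to 1.02 in the 3 comparisons) and pachytene-like cells (-0.06 to 1.04), for *eef1a1o.L* in GSC-like against somatic cells (-0.73 to 1.81) and cluster 2 (-1.27 to 0.19), for *eef1a1.L* (-1.2 to 0.02) and *eef1a1.S* (-1.12 to 0.22) in stage 1 follicle-like cells, for *eef1a1.S* in cluster 10 (-0.42 to 0.1), and for *eef1a1.L* (-0.25 to 0.13) and *eef1a1.S* (-0.27 to 0.08) in leukocyte-like cells.

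Counts without germline clusters 5 and 6 and without somatic cluster 24, added after the data were seen, changed no call on the members. The unnamed clusters were not compared under other clusterings. Smooth muscle-like cells had at least 10 cells only in ovary 1 and were not tested. *eef1a2* rests on few UMIs per ovary, and *eef1a1o* of ovary 3 below its somatic level cannot be told from background.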

Other observations

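Somatic cluster 24 (56, 5 and 18 cells), a part of the leukocyte-like class, had *eef1a1o.S* in ovary 1 with few UMIs of the other oocyte and germline genes counted. There 37 of 56 cells held 138 UMIs of *eef1a1o.S*, up to 14 in a cell. The cluster had 7 UMIs of *eef1a1o.L*, 3 of *42sp43.L*, 8 of *ddx4.L*, 2 of *ddx4.S*, 0 of *dazl.L* and 382 of *eef1a1.L*. In ovary 3 there were 18 UMIs of *eef1a1o.S* beside 10 of *eef1a1o.L* and 14 of *42sp43.L*, and in ovary 2 only 1 UMI of *eef1a1o.S*. The cluster was singled out after its values were seen, and rests on ovary 1.

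Germline cells over the mitochondrial limit (33, 445 and 428) had *eef1a1o* at 34.9, 31.9 and 52.2% of eef1a UMIs. The other cells over the limit had 9.03, 1.97 and 29.7%.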
